A study of Mus musculus with 11 samples.

Results

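Fibroblast growth factors (FGFs) are secreted proteins that bind receptor tyrosine kinases on the cell surface and activate, through adaptor proteins, the Ras, Raf, MEK and ERK cascade. Active ERK switches on genes that include Etv4 and Etv5, transcription factors of the ETS family, and the Sprouty genes, whose proteins in turn dampen signaling from the receptors, so that Sprouty and Etv mRNAs are widely read as a measure of FGF activity. Early in development Fgf8 and Fgf17 are made by the organizer at the mid-hindbrain boundary, which sets up the cerebellum, and Chd7, a chromatin remodeling gene mutated in CHARGE syndrome, has been linked to Fgf8 at that stage. After birth, granule cells make Fgf9, and FGF receptors act in the neighboring Bergmann glia. The set described here holds 10 genes of this pathway out of 38924 genes counted, chosen by name for that link: the ligands Fgf8 and Fgf17, the receptors Fgfr1, Fgfr2 and Fgfr3, the Sprouty inhibitors Spry1, Spry2 and Spry4, and the transcription factors Etv4 and Etv5. All 10 were found in the count files, and 9 had enough reads to be tested.

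RNA-Seq was compared between 2 cko libraries (Math1-Cre with both Chd7 alleles floxed) and 2 control libraries of cerebellar granule cell progenitors (GCps) from P7 mice on a C57Bl/6J background. Chromatin libraries from the same project (ATAC-Seq, H3K4me1 ChIP-Seq) are not used here. The control genotype is Chd7flox/+ in the sample labels, whereas the extraction notes give controls with 2 floxed alleles and no Cre. Math1-Cre acts in the granule cell lineage from the rhombic lip onward and spares the most posterior lobules. Lobules IX and X were cut away before GCps of pooled cerebella were separated on a Percoll gradient. Whether the replicates of a genotype are independent pools of animals is not stated, and the p-values reflect the spread among these 4 libraries alone, which in the control pair may be technical. Total counts were 73480074 and 62437759 in cko replicates 1 and 2 and 77346481 and 61836588 in control replicates 1 and 2.

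The deleted gene itself could not check the labels. Chd7 was at 392 and 355 CPM (read counts relative to library size, with TMM correction for library composition) in cko replicates 1 and 2, against 322 and 319 CPM in control replicates 1 and 2 (log2 fold change of cko over control 0.22, adjusted p = 0.418), and a count summed over the whole gene is no check of a deletion that removes part of it. The direction of each difference is taken from the labels. GCp markers were present in every library. The defining factor Atoh1 was at 37.0 and 29.1 CPM in the cko and at 25.6 and 30.1 CPM in the control libraries. Of 10 listed GCp markers, 0 passed the test and 4 had an unadjusted p under 0.05, where 13.6% of all tested genes did. Their log2 fold changes went both ways, from -0.71 to 0.31. Both cko libraries lay below both control libraries in 3 of the 10 and above both in 5. Over all tested genes, 21.2% lay below and 22.7% above. Markers of other cell types were present too, and Xist RNA, made by female cells, was at 793 and 0.114 CPM in cko replicates 1 and 2, against 0.548 and 0.182 CPM in control replicates 1 and 2, so the cko libraries came from different animals and sex moves with cko replicate 1. In such bulk RNA, fewer cells of a type and less RNA per cell cannot be told apart.

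None of the 9 tested genes of the set passed the test between cko and control GCps, and Fgfr1, at 0.770-fold, came nearest. With edgeR's quasi-likelihood test (no replicate block) and Benjamini-Hochberg adjustment over all 16436 genes tested, 0 of the 9 were lower in cko at an adjusted p of 0.05, where 0.773% of all tested genes were, and 0 were higher, where 0.809% were (1.58% in either direction). DESeq2, which called 5.60% of the genes it tested, called 0 of the 9. One gene of the 9, Fgfr1, had an unadjusted p under 0.05, a level that 13.6% of all tested genes reached. The log2 fold changes of cko over control ran from -0.47 for Etv4 to 0.14 for Fgfr3. Of the 9 values 8 were below 0, and the median of the 9 was -0.16, against a median of -0.00056 over all tested genes. The number below 0 was 7 without cko replicate 1 or with library totals alone, and 5 without control replicate 2. In 3 of the 9 genes (Fgfr1, Fgfr2 and Etv4) both cko libraries lay below both control libraries, which is 33.3% of them, whereas 21.2% of all tested genes had both cko libraries below and 22.7% both above (43.9% in either direction). For a single gene, exact permutation of 2 and 2 libraries goes no lower than a two-sided p of 0.333 and was not used.

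**Figure D1:**
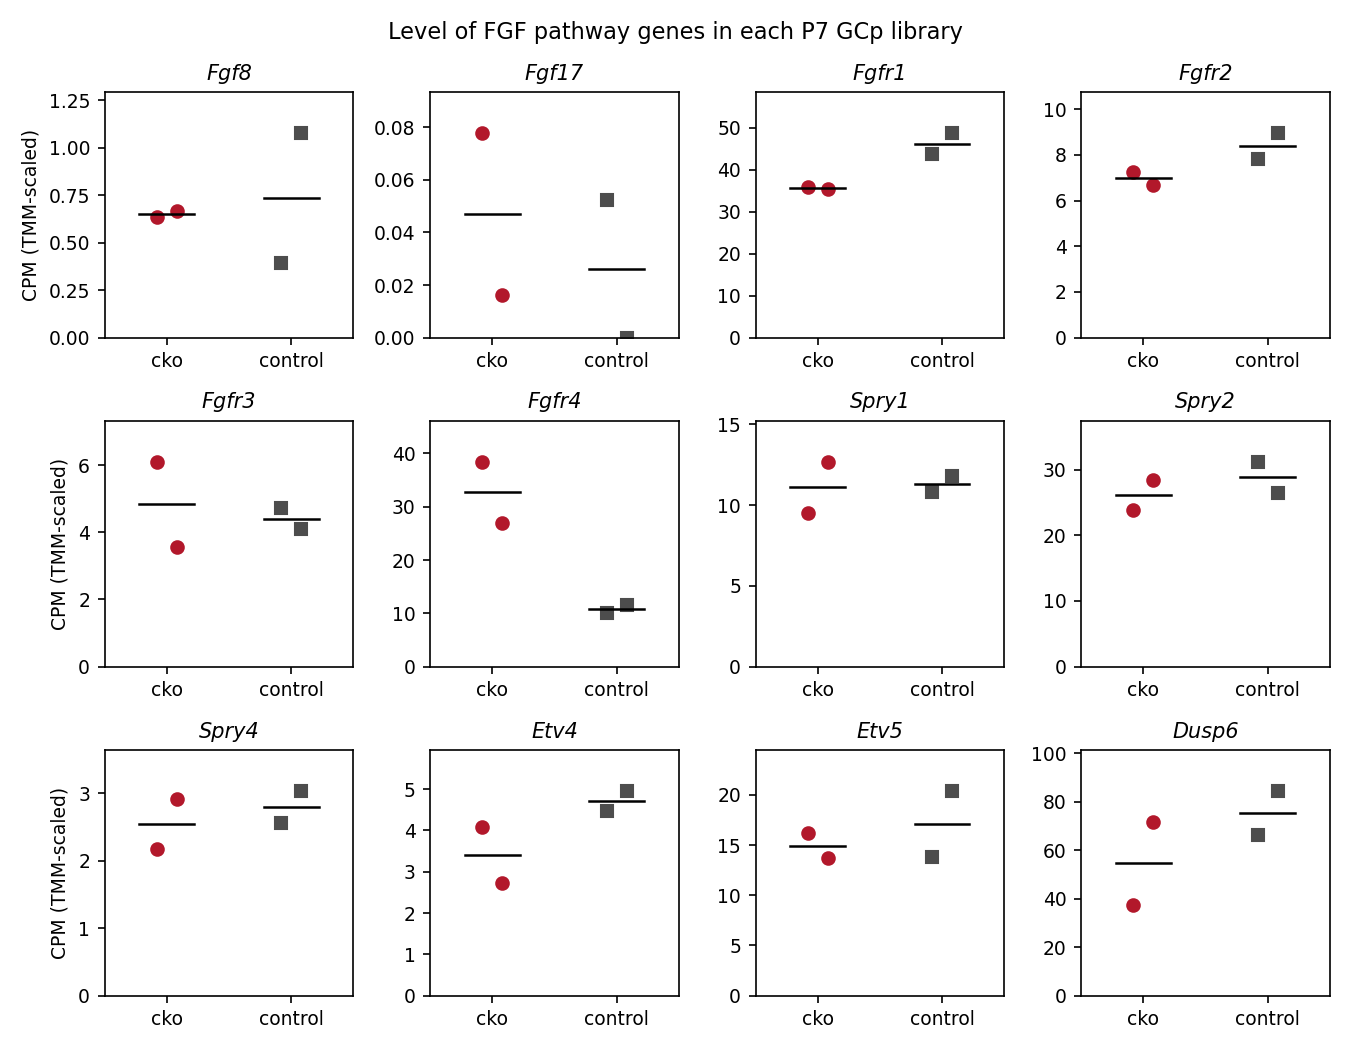
CPM (TMM-scaled, vertical axis starting at 0) of the 10 genes of the set and of Fgfr4 and Dusp6 in each library. Red circles are the 2 cko and gray squares the 2 control libraries, and bars are means. Fgfr1 lies at 35.9 and 35.3 CPM in cko, against 43.7 and 48.8 CPM in control, whereas the Sprouty genes and Etv5 overlap between genotypes.

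Of the organizer ligands, Fgf8 was low and Fgf17 nearly silent in P7 GCps of either genotype. Fgf8 (chromosome 19, 45736798 to 45742915, minus strand of GRCm38) had 49 and 41 counts in cko replicates 1 and 2, against 30 and 65 counts in control replicates 1 and 2, or 0.635 and 0.667 CPM in cko, against 0.392 and 1.08 CPM in control. Both cko values lie between the control values, and control replicate 1 was at 0.364 times control replicate 2, a gap wider than that of 98.9% of tested genes. The log2 fold change of -0.16 (standard error 0.49, adjusted p = 0.943) has a 95% interval that reaches from 0.398-fold to 2.02-fold, and it was -0.73 without control replicate 1 and 0.73 without control replicate 2. A change of Fgf8 within that interval could not be told from the spread between these libraries. Fgf17, the second ligand of the organizer (chromosome 14, 70636203 to 70642268, minus strand), had 6 and 1 counts in the cko libraries and 4 and 0 counts in the control libraries and did not pass the filter on low counts. The summed counts were 7 in cko (exact 95% Poisson interval 2.81 to 14.4) and 4 in control (1.09 to 10.2), which covers counting error only. The count of 0 in control replicate 2 allows up to 3 counts, or 0.0497 CPM.

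Among the receptors, Fgfr1 came closest to a difference. Fgfr1 (chromosome 8, 25513654 to 25575718, plus strand), the most abundant of the 3 receptors of the set, was at 35.9 and 35.3 CPM in cko replicates 1 and 2, against 43.7 and 48.8 CPM in control replicates 1 and 2. The groups did not overlap, and the cko replicates agreed within 1.02-fold. Its log2 fold change was -0.38 (standard error 0.11), or 0.770-fold with a 95% interval of 0.645 to 0.919, and the unadjusted p of 0.0102 became 0.167 after adjustment over all genes. A lower p was found for 6.11% of tested genes. The direction held without each library in turn, with log2 fold changes between -0.46 and -0.30.

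Fgfr2 (chromosome 7, 130162451 to 133123350, minus strand) was lower in level and showed a smaller gap. It was at 7.26 and 6.70 CPM in the cko libraries, against 7.81 and 8.97 CPM in the control libraries. The groups did not overlap here either, but the log2 fold change of -0.26 (standard error 0.16, adjusted p = 0.589) has an interval from 0.636-fold to 1.09-fold. In the GENCODE M21 annotation 3.04% of the exonic length of Fgfr2 overlaps Ctbp2 on the same strand. For Fgfr1, 1.66% overlaps Gm16159 on the other strand. Reads were counted on other gene models (Ensembl 75), and how reads in these stretches were treated was not tested.

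Fgfr3 (chromosome 5, 33721674 to 33737068, plus strand) was the receptor whose cko libraries disagreed. Its values were 6.09 and 3.58 CPM in cko replicates 1 and 2, and the control libraries lay between these, at 4.71 and 4.09 CPM. The 1.70-fold gap inside the cko pair was wider than that of 93.5% of tested genes, whereas the control pair differed 1.15-fold. Its cko over control value was 0.14 on the log2 scale (standard error 0.28, adjusted p = 0.903), and it was -0.29 without cko replicate 1.

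Sprouty mRNAs, the feedback inhibitors of the pathway, overlapped between genotypes in all 3 genes. Spry2 (chromosome 14, 105891947 to 105896819, minus strand) had the highest level per kb of the whole set, with 23.9 and 28.5 CPM in cko replicates 1 and 2, against 31.2 and 26.5 CPM in control replicates 1 and 2. Its log2 fold change was -0.14 (standard error 0.14, adjusted p = 0.767), with a 95% interval from 0.722-fold to 1.14-fold. Spry1 (chromosome 3, 37639947 to 37644598, plus strand) was at 9.53 and 12.7 CPM in the cko libraries, against 10.8 and 11.8 CPM in the control libraries. Here the cko values enclosed the control values, and the log2 fold change was -0.03 (standard error 0.18, adjusted p = 0.976, interval 0.731-fold to 1.32-fold). Spry4 (chromosome 18, 38586247 to 38601415, minus strand) was the scarcest, at 2.17 and 2.91 CPM in cko and at 2.56 and 3.03 CPM in control. The log2 fold change of Spry4 was -0.14 (standard error 0.24, adjusted p = 0.880, interval 0.608-fold to 1.35-fold). In each of the 3 genes cko replicate 1 had the lowest value of the 4 libraries.

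The Etv genes, transcription factors that FGF signaling induces, were lower on average in cko GCps without passing the test. Etv4 (chromosome 11, 101769742 to 101785371, minus strand) was at 4.07 and 2.73 CPM in cko replicates 1 and 2, against 4.48 and 4.96 CPM in control replicates 1 and 2. Both cko libraries lay below both control libraries, yet cko replicate 2 was farther from cko replicate 1 (1.49-fold) than cko replicate 1 was from the nearer control. The log2 fold change of -0.47 (standard error 0.24, adjusted p = 0.498) is the largest of the set, with an interval from 0.484-fold to 1.08-fold, and it was -0.21 without cko replicate 2 and -0.78 without cko replicate 1. Etv5 (chromosome 16, 22381309 to 22439719, minus strand) was at 16.2 and 13.7 CPM in the cko libraries, against 13.9 and 20.4 CPM in the control libraries. The genotypes overlapped, and the log2 fold change of -0.19 (standard error 0.21, adjusted p = 0.783) turned to 0.11 without control replicate 2.

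**Figure D2:**
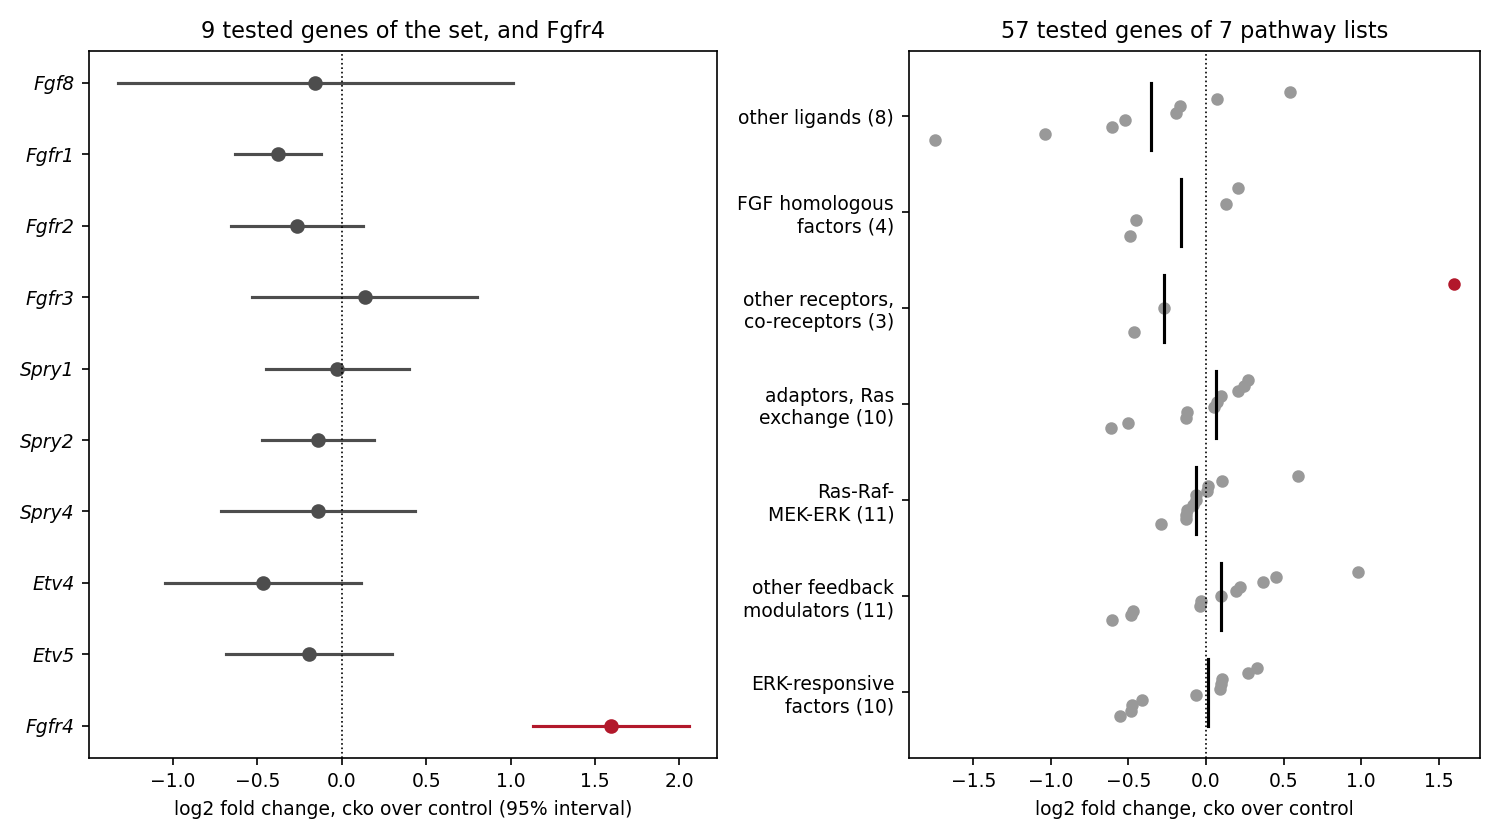
Left, log2 fold change of cko over control (horizontal axis) with its 95% interval for the 9 tested genes of the set and for Fgfr4. Right, the 57 tested genes of 7 further pathway lists, 1 point per gene, with the number tested in parentheses and list medians as black bars. Red marks an adjusted p under 0.05, which Fgfr4 alone reached, at a log2 fold change of 1.60.

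Levels were compared between genes only after dividing by the exonic length of each gene. On this scale Spry2 stood alone at the top, between 11.5 and 14.9 CPM per kb over the 4 libraries. Fgfr1 (3.58 to 4.94), Etv5 (3.34 to 4.97) and Spry1 (3.28 to 4.36 CPM per kb) followed and were not separated from each other by the spread between libraries. Below them came Etv4 at 0.880 to 1.60 CPM per kb, and then Fgfr2 (0.649 to 0.868), Fgfr3 (0.500 to 0.851), Spry4 (0.455 to 0.638) and Fgf8 (0.290 to 0.798 CPM per kb), each overlapping the next in this order. Among tested genes, 75.5% had a lower mean level per kb than Spry2, 50.1% a lower one than Fgfr1 and 22.1% a lower one than Fgf8. The order near Fgfr1 and Etv4 depends on the length used: with the longest transcript in place of all exons, the 4-library mean was 8.12 CPM per kb for Fgfr1 instead of 4.14, and that of Fgfr2, at 1.73, came level with that of Etv4, at 1.69 CPM per kb.

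Shares within a family do not depend on how libraries are scaled. Spry2 made up 75.4% and 73.3% of Sprouty mRNA (CPM per kb summed over the 3 genes) in cko replicates 1 and 2, against 77.8% and 73.0% in control replicates 1 and 2. Etv5 made up 75.1% and 79.2% of the sum of Etv4 and Etv5 in the cko libraries, against 70.1% and 75.7% in the control libraries. Both shares overlapped between genotypes.

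The one pathway gene that passed the test was a receptor outside the set. Fgfr4 (chromosome 13, 55152640 to 55168759, plus strand), the remaining member of the receptor kinase family, had 2962 and 1659 counts in cko replicates 1 and 2, against 767 and 702 counts in control replicates 1 and 2. This corresponds to 38.4 and 27.0 CPM in the cko libraries, against 10.01 and 11.6 CPM in the control libraries, and the genotypes did not overlap. Fgfr4 rose 3.02-fold (95% interval 2.20 to 4.16, adjusted p = 0.0238), a log2 fold change of 1.60 with a standard error of 0.19, and it kept its call under all 10 alternatives tried, with log2 fold changes between 1.33 and 1.83. Of the 4 receptor genes, Fgfr4 held 67.6% and 61.7% of the summed CPM per kb in cko replicates 1 and 2, against 32.6% and 34.0% in control replicates 1 and 2. Fgfr1 correspondingly held 22.7% and 29.0% in the cko libraries, against 51.1% and 51.1% in the control libraries. With the longest transcript as the length, the mean share of Fgfr4 was 49.8% in cko and 21.2% in control.

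**Figure D3:**
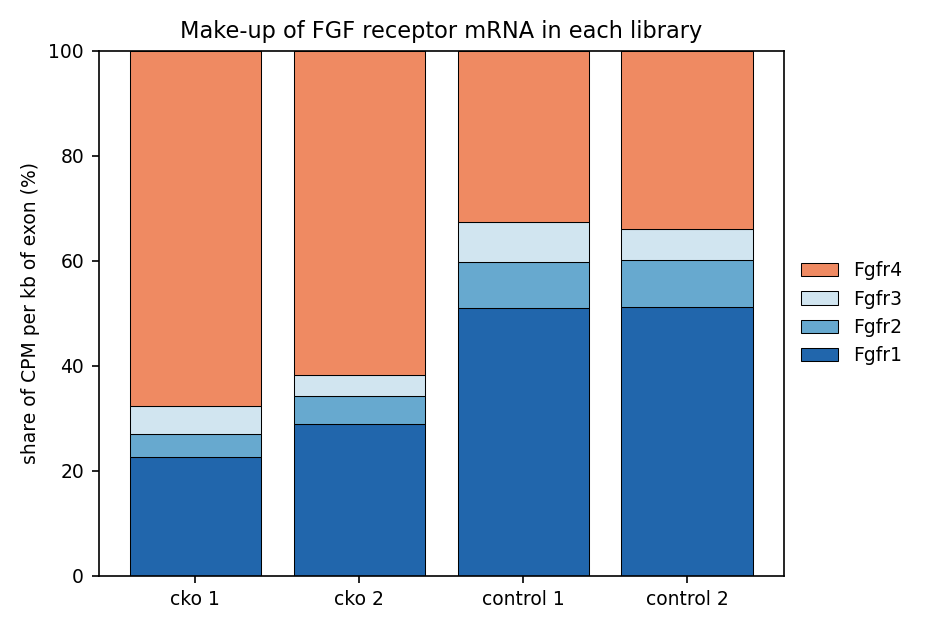
Share of each FGF receptor gene (percent of the summed CPM per kb of exon, vertical axis) in each library. In the cko libraries Fgfr4 holds 67.6% and 61.7% of the bar and Fgfr1 22.7% and 29.0%, whereas Fgfr1 holds 51.1% of each control bar.

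Fgfr4 is also known from myogenic cells, and skeletal muscle markers moved in the same direction. All 10 listed muscle markers were higher in both cko libraries than in both control libraries, where 22.7% of all tested genes were. By edgeR's test 5 of the 10 were called higher, where 0.809% of all tested genes were. The summed level of the 10 was 34.3 and 68.5 CPM in cko replicates 1 and 2, against 10.4 and 7.14 CPM in control replicates 1 and 2. None of these markers was at 0 in any library, and Myog, a defining factor of muscle differentiation, was at 2.57 and 3.43 CPM in the cko libraries, against 0.313 and 0.414 CPM in the control libraries. Between the cko libraries the muscle sum was higher in replicate 2, whereas Fgfr4 was higher in replicate 1. The part of muscle RNA in the Fgfr4 result was not tested.

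Across the rest of the pathway, 1 of 57 tested genes passed, which is 1.75% where 1.58% of all tested genes did. These genes come from 7 lists with 67 names, of which 66 were found in the files. The median log2 fold change over the 57 was -0.06, with 31 genes below and 26 above 0. By edgeR 13 of the 57 had an unadjusted p under 0.05, a level that 13.6% of all tested genes reached. DESeq2 called 2 of them lower (Fgf3 and Gab1), where it called 2.72% of all the genes it tested lower, and 2 higher (Fgfr4 and Flrt1), where it called 2.88% higher. Fgf3, Gab1 and Flrt1 are named because of these values.

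Of 16 other FGF ligands 8 could be tested and 0 passed, with 1 at an unadjusted p under 0.05 and a median log2 fold change of -0.36. Fgf9, the granule cell ligand, had the highest level per kb among them and was at 18.3 and 13.6 CPM in cko, against 18.4 and 17.5 CPM in control (log2 fold change -0.17, adjusted p = 0.772). Its level in CPM per kb exceeded that of Fgf8 in every library. Fgf3, a ligand made in the embryonic hindbrain, had the lowest fold change of the pathway (log2 fold change -1.75, standard error 0.56, adjusted p = 0.253), at 0.389 and 0.976 CPM in the cko libraries, against 3.09 and 1.43 CPM in the control libraries. Among the 4 intracellular FGF homologous factors, which act on ion channels and not on FGF receptors, 0 passed and 2 had an unadjusted p under 0.05. Fgf13 was the most abundant of these, at 38.3 and 51.0 CPM in cko, against 62.1 and 63.5 CPM in control (log2 fold change -0.49, adjusted p = 0.191).

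The machinery between receptor and nucleus held no gene that passed the test. Of 10 adaptors and Ras exchange factors, 0 passed and 2 had an unadjusted p under 0.05. Grb2, the adaptor that links receptors to Ras activation, was at 133 and 138 CPM in cko, against 154 and 141 CPM in control (log2 fold change -0.12, adjusted p = 0.686). Gab1, a docking protein of the same complex, was at 131 and 171 CPM in the cko libraries, against 228 and 233 CPM in the control libraries, but its log2 fold change of -0.61 (standard error 0.14) had an adjusted p of 0.102. Of 11 Ras, Raf, MEK and ERK genes, 0 passed, 2 had an unadjusted p under 0.05, and the median was -0.07.

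Other targets and brakes of the pathway held no gene that passed either, and several had a low value in 1 of the 2 cko libraries. Of 11 other feedback inhibitors and modulators, 0 passed and 4 had an unadjusted p under 0.05. Of these 4, Dusp4, Flrt1 and Flrt2 were higher in cko (log2 fold changes 0.45, 0.98 and 0.37) and Spred3 was lower (-0.48). The median of the 11 was 0.10, with 5 genes below and 6 above 0. Dusp6, a phosphatase that inactivates ERK and is itself induced by it, was at 37.3 CPM in cko replicate 1 but at 71.8 CPM in cko replicate 2, against 66.4 and 84.4 CPM in control replicates 1 and 2 (log2 fold change -0.47, standard error 0.36, adjusted p = 0.700). Flrt3, a membrane protein that binds FGF receptors, was at 19.2 and 43.2 CPM in the cko libraries, against 44.3 and 50.3 CPM in the control libraries. Of 10 ERK-responsive transcription factors, 0 passed and the median log2 fold change was 0.01. One of the 10, Elk3, had an unadjusted p under 0.05 and was higher in cko (log2 fold change 0.33). Fos was at 318 and 717 CPM in cko replicates 1 and 2, against 661 and 784 CPM in control replicates 1 and 2, and Egr1 was at 236 and 627 CPM in cko, against 518 and 685 CPM in control. Cko replicate 1 was thus lowest for Dusp6, Flrt3, Egr1 and Fos, as it was for the Sprouty genes. Fgfr3, Etv4, Etv5 and Fgfr4 were instead higher in cko replicate 1 than in cko replicate 2. Others of these lists, including Dusp4, Flrt1, Flrt2 and Fosl1, were highest in cko replicate 1. Dusp4 was at 65.0 and 45.4 CPM in cko replicates 1 and 2, against 41.1 and 39.7 CPM in control replicates 1 and 2. Without cko replicate 2, 8 pathway genes were called lower, namely Fgf13, Gab1, Dusp6, Flrt3, Egr1, Fos, Ier2 and Ier3, where 2.30% of all tested genes were. That fit has 1 cko library, which is assumed to vary as the control pair does. Without cko replicate 1 none of the pathway genes was called lower. Dusp4, Spred3, Flrt2, Flrt3, Elk3, Fosl1, Egr1, Ier2 and Ier3 were named after their values were seen.

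Genes of tissue dissociation and the immediate early response were at their lowest sum in the same library. Their summed level over 12 genes was 1357 and 2021 CPM in cko replicates 1 and 2, against 2319 and 2109 CPM in control replicates 1 and 2, and 0 of the 12 passed the test (1 at an unadjusted p under 0.05). Their part in the low Sprouty, Dusp6 and Fos values of cko replicate 1 was not tested. Nor was that of sex, which moves with the same library.

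**Figure D4:**
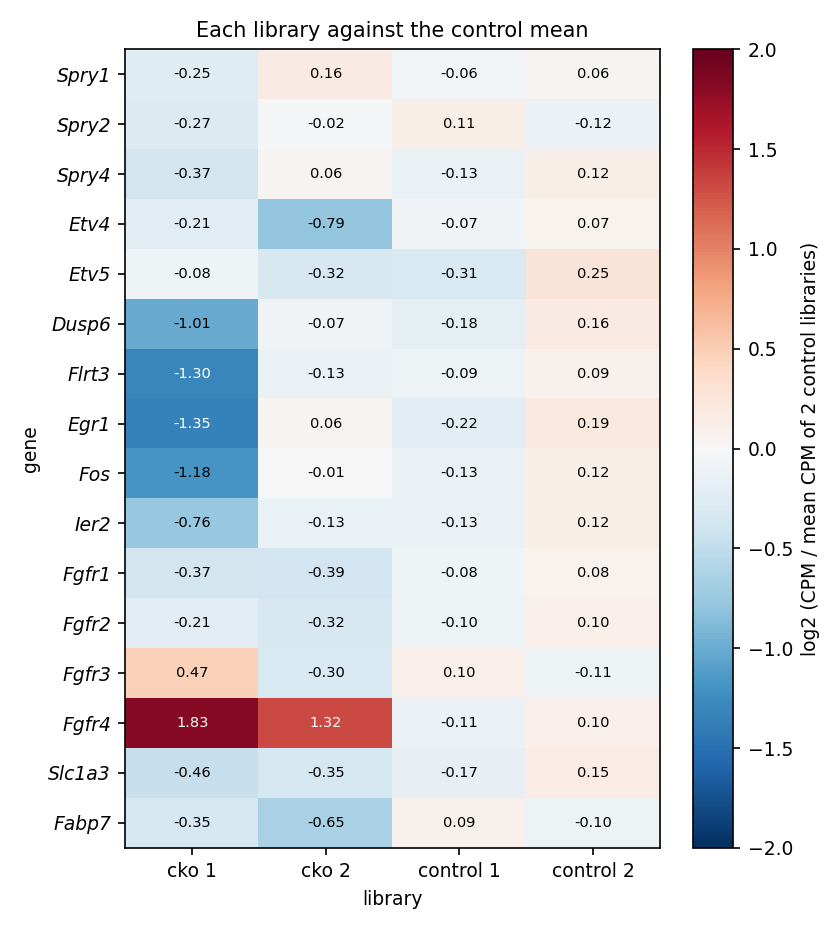
Heat map of the log2 ratio of the CPM in each library (columns) to the mean CPM of the 2 control libraries, for 16 genes (rows), with blue for lower, red for higher and the value in each cell. In cko replicate 1 Dusp6 (-1.01), Flrt3 (-1.30), Egr1 (-1.35) and Fos (-1.18) are low, whereas in cko replicate 2 they lie at -0.07, -0.13, 0.06 and -0.01. Fgfr1 lies at -0.37 and -0.39 in the cko libraries.

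Most markers of astrocytes and Bergmann glia, which use FGF receptors in the cerebellum, had a log2 fold change below 0. So did 8 of the 9 tested genes of the set, whereas Fgfr3 had the opposite sign (0.14). Of 15 astrocyte and Bergmann glia markers, 14 had a log2 fold change below 0 (median -0.21), and 0 passed edgeR's test. In 9 of the 15 both cko libraries lay below both control libraries, where 21.2% of all tested genes did, and 5 overlapped. By edgeR 7 of the 15 had an unadjusted p under 0.05, a level that 13.6% of all tested genes reached. The summed level of the 15 was 1424 and 1421 CPM in cko, against 1600 and 1723 CPM in control, and none was at 0 in any library. The glutamate transporter gene Slc1a3 was at 251 and 270 CPM in the cko libraries, against 308 and 384 CPM in the control libraries. The glial fatty acid binding protein gene Fabp7 was at 131 and 107 CPM in cko, against 179 and 156 CPM in control. Gfap, the only marker of the 15 above 0, was at 72.7 and 71.8 CPM in cko, against 66.2 and 60.4 CPM in control. Gfap was named after its values were seen. The 12 endothelial and mural markers had the opposite sign to most of these glial markers, at a summed 515 and 575 CPM in cko, against 421 and 371 CPM in control. Their median log2 fold change was 0.47. By edgeR 0 of the 12 passed and 8 had an unadjusted p under 0.05, against 13.6% of all tested genes. The 12 oligodendrocyte lineage markers had the opposite sign too, in 11 of 12, and summed to 457 and 485 CPM in cko, against 423 and 376 CPM in control. One of the 12, Olig2, passed edgeR's test (log2 fold change 1.21, adjusted p = 0.0415), where 0.809% of all tested genes were called higher. By edgeR 3 of the 12 had an unadjusted p under 0.05, against 13.6% of all tested genes. In 7 of the 12 both cko libraries lay above both control libraries, where 22.7% of all tested genes did. The part of these cell types in the FGF gene values was not tested.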

How the data were processed

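The authors deposited unnormalized read counts per Ensembl gene for each RNA-Seq library. According to the methods and the submitters' processing notes, reads were trimmed with Trim Galore 0.4.1, aligned to mm10 with TopHat2 2.0.14 and counted against Ensembl 75 with HTSeq 0.6.1p1 in intersection-strict mode, skipping alignments of quality below 3. As no source states whether strand was used in counting, reads of genes that overlap on opposite strands cannot be told apart. Names, coordinates and exon lengths came from GENCODE release M21 (GRCm38), matched by identifier for 37607 of 38924 genes.

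Low counts were removed with filterByExpr. After TMM scaling, genotypes were compared by the robust quasi-likelihood test of edgeR 4.0.16 in R 4.3.3, adjusted by Benjamini-Hochberg over 16436 genes at a threshold of 0.05. The standard error is the size of the log2 fold change divided by the square root of F, and intervals are 95%. CPM per kb is CPM divided by the length of the union of exons. The steps were tested on simulated data. Replicates differed by far more than sampling noise and were kept as separate libraries. Alternatives were DESeq2 1.42.0, 3 other scalings, no filter on low counts, a replicate block and leaving out each library. The members and gene lists were chosen with earlier results of these data known. Genes named are the members, every called pathway gene, the most abundant gene of each pathway list without a call, Chd7 and defining markers, with others said to be chosen after their values were seen. One result that this rule would name is not reported here.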

Additional observations from a re-analysis of the deposited data

How the results depend on the processing

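The count of all genes called, 260 in the comparison as reported, was 891 with DESeq2, 727 without the filter on low counts and 1010 with the replicate block, and ran from 115 (without control replicate 2) to 712 (without cko replicate 2) when 1 library was left out. Pathway genes called lower numbered 0 as reported, 2 with DESeq2, 1 without the filter and 2 with the block, and 0 to 8 with 1 library left out. Pathway genes called higher numbered 1 as reported, 2 with DESeq2, 2 without the filter and 3 with the block, and 1 to 2 with 1 library left out. Of the set itself 1 gene was called lower under 1 setting: with the replicate number as a block, Fgfr1 had a log2 fold change of -0.38 and an adjusted p of 0.0497. The labels do not say that replicate numbers pair the libraries. Their deviations correlated at 0.21 over 16436 genes, for 2 pairs only, so the pairing was not used. Genes of the mitochondrial chromosome held 1.86% and 2.14% of counts in cko and control replicate 1. In cko and control replicate 2 they held 3.80% and 3.41%. What lies behind this split by replicate number was not tested. Over the other alternatives the adjusted p of Fgfr1 ran from 0.0574 with DESeq2 to 0.680 without control replicate 2.

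Of 90 values of the 9 tested genes under 10 alternatives, 82 kept their direction and their side of the threshold and 7 reversed, none of them called. Spry1 was at 0.016 with library totals alone. With 1 library left out, the log2 fold change ran from -0.73 to 0.73 for Fgf8, from -0.29 to 0.47 for Fgfr3, from -0.25 to 0.17 for Spry1, from -0.37 to 0.069 for Spry4 and from -0.45 to 0.11 for Etv5. With the longest transcript as length, mean CPM per kb was 8.12 for Fgfr1, 1.73 for Fgfr2, 1.09 for Fgfr3 and 1.69 for Etv4. Where a call changed, the cause was not tested. The low counts of Fgf8 and Fgf17 limit what could be seen for the ligands.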
